A study of Mus musculus with 8 samples.

Results

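The 45 genes described here act in the G2 phase and in mitosis, and were taken by gene symbol from the deposited count table of a study of Stat3 oxidation. All 45 were among the 19041 rows of the table and all 45 were among the 13538 genes tested. RNA had been sequenced from immortalised mouse embryonic fibroblasts (MEFs) of Stat3 fl/fl embryos. In every group the cells' own Stat3 had been deleted with a Cre-Thy1.1 retroviral (MSCV) vector, and a second vector carrying GFP had put back Stat3, as WT-Stat3 in the WT cells and as Stat3-C3S, a form insensitive to redox change through replaced cysteines, in the C3S cells. Each line was 1 polyclonal population sorted for these markers, so a difference between lines cannot be told apart from any other difference between the 2 populations. Cells were left untreated (basal) or given 100 µM hydrogen peroxide (H2O2), with 2 libraries in each of the 4 groups. The sample records give the exposure as 2 h. The study's methods give 1 h under RNA extraction and qRT-PCR, so the exposure time is uncertain. The study calls the 2 libraries of a group biological replicates. Whether libraries of 1 group were grown separately is not in the labels, and p-values measure only the spread between these libraries.

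A cell enters mitosis when the kinase Cdk1, bound to cyclin A or cyclin B, is freed from the inhibitory phosphates that Wee1 adds and Cdc25 phosphatases remove. Polo and Aurora kinases and kinesin motors then build the spindle, the spindle checkpoint holds the anaphase-promoting complex until every kinetochore is attached, and destruction of securin frees separase to part the sister chromatids. Most of these genes are transcribed in G2 under the control of B-Myb, FoxM1 and the DREAM complex, which act through the cell cycle genes homology region (CHR). Many of the promoters also hold CCAAT boxes, a separate motif. In cultured fibroblasts the transcripts of many of these genes are taken as marks of the share of cells that are dividing. In bulk RNA, fewer cells in G2 and mitosis and less RNA of these genes per cell cannot be told apart, and this holds for every result below.

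The libraries held 17050016 to 22260814 expected counts. A normalised read count below is the expected count divided by the library's size factor, and a level is always in this unit. Counts were not divided by transcript length, so levels are compared between libraries and not between genes. The 11 fibroblast markers in the table, of 12 listed, summed to 252729 to 276629 normalised counts in the basal libraries and 211418 to 230668 after H2O2. Single fibroblast markers differed between the lines in ways these sums do not show. At baseline 2 of the 11 were called lower in C3S cells and 3 called higher (log2 -3.07 to 1.86). After H2O2 these counts were 2 and 5. Peroxide lowered all 11 by adjusted p in the WT line, with 2 called, against 8 in the C3S line, with 0 called. The response differed between the lines by adjusted p in 6 of the 11. Some markers of other cell types also differed between the lines. Endothelial markers summed to 85.1 to 108 in WT and 213 to 248.6 in C3S libraries, and skeletal muscle markers to 95.8 to 143.5 in WT libraries and to 0 to 1.00 in C3S basal and 36.1 to 49.0 in C3S H2O2 libraries. Epithelial markers summed to 941 to 1163 in WT and 969 to 1045 in C3S libraries, and 3 of the 4 tested were called lower in C3S cells at baseline. Leukocyte markers summed to 18.8 to 56.6 in basal libraries and to 105 to 153 after H2O2, and the number of genes with at least 1 count was 14445 to 15052 in basal libraries and 15734 to 16681 after H2O2. The part of these shifts and differences in the results was not tested. Stat3 itself stood at 7448 to 8850 normalised counts in the WT libraries and 4660 to 5164 in the C3S libraries, which does not separate the introduced gene from any remainder of the deleted one.

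Promoter sequences of 38 of the 45 genes were matched in RefSeq (GRCm38.p6). They cover 250 bases before and 50 bases after the annotated start. The motifs were chosen after the expression values had been seen. The CHR (TTTGAA, either strand) was present in 26 of the 38 windows (68.4%), against 18.1% of the 27025 promoters in the whole set. At least 1 CCAAT box (CCAAT, either strand) was present in 30 (78.9%), against 37.9% of all promoters, and both motifs in 23 (60.5%, against 7.12%). The motifs can share 1 base at most. The 150 bases before the RefSeq start are shown for Ccnf, Kif18a and Mki67, which were among the 6 largest falls in both lines, and for Cdk1, which did not pass the test in either, with motif letters in capitals. Gene positions and spans given with the results are from GENCODE M21, whose outermost start can differ, and part of the Ccnf and Cdk1 stretches lies inside those spans.
Ccnf (chr17:24251410-24251559, minus strand): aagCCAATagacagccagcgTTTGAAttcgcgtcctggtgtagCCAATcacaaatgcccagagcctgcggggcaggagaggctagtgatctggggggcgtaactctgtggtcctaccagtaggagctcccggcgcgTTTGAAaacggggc
Kif18a (chr2:109280588-109280737, plus strand): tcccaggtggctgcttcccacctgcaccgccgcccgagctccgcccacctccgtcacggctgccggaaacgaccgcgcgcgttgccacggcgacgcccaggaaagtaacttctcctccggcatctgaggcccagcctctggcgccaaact
Mki67 (chr7:135716380-135716529, minus strand): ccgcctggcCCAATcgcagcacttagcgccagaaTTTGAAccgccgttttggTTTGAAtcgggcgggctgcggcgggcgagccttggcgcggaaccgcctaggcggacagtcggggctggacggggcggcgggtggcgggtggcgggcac
Cdk1 (chr10:69352913-69353062, minus strand): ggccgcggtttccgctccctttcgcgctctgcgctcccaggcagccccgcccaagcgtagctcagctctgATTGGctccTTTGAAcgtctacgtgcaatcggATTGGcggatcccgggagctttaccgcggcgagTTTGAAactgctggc

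The stretches of Ccnf and Cdk1 each held 2 CHR matches and 2 CCAAT boxes, although Ccnf had the largest fall of the 45 genes and Cdk1 one of the smallest changes. The Mki67 stretch held 2 CHR matches and 1 CCAAT box. Before the printed bases, the scanned windows held further CCAAT boxes at positions -188 and -166 for Mki67 and -208 for Cdk1. Kif18a held neither motif, which says only that these letters were not in its window. Genes with and without a CHR match overlapped in their response to peroxide. Only TTTGAA around the first listed start of each gene was searched, so genes without a match may still hold a CHR. In WT cells the 26 genes with a CHR had a median log2 fold change of -0.23 (range -1.61 to 0.10) and the 12 without one of -0.16 (-0.88 to 0.07). In C3S cells the medians were -0.24 and -0.22.

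In WT cells, peroxide lowered many of these genes by a modest amount and Ccnf by 3.04-fold. A gene is said to have risen or fallen where edgeR's quasi-likelihood test gave an adjusted p under 0.05, and to be called where the change also reached 2-fold, the study's threshold. Ccnf was the 1 gene called lower (1.74% of all genes tested were called lower) and 0 were called higher (7.63%). By adjusted p alone 32 of 45 fell (25.8% of all genes tested) and 0 rose (18.3%). The 45 genes are well expressed, with means from 449.8 (Pttg1) to 13801 (Top2a) normalised counts, and of the 6720 genes with at least the mean of Pttg1 39.5% fell and 12.9% rose. The libraries of the treated and basal groups did not overlap in 36 genes that were lower and in 3 that were higher, where 38.5% and 32.9% of all genes showed such a separation. The median of the 45 log2 fold changes was -0.18, against -0.01 over all genes tested.

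The scaling of the libraries moved these counts. Scaling by library totals shifted the median of all genes to 0.10, and 21 of the 45 genes then fell while 5 rose (Bub3, Mad2l1, Birc5, Ube2c and Cenpa). The median of the 45 genes stayed 0.17 below that of all genes under either scaling. Without WT basal replicate 1, Bub3 and Cenpa passed as higher, which gave 2 genes that rose in place of 0.

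C3S cells showed the same kind of change. Ccnf fell by 77.5% and Kif18a fell by 60.7%, and these 2 genes were called lower (1.48% of all genes tested) while 0 were called higher (7.19%). By adjusted p alone 33 of 45 fell (20.5% of all genes tested, and 29.2% of the 6720 genes of comparable counts) and 0 rose (17.4%, and 15.8%). The groups did not overlap in 38 lower genes (35.2% of all genes) and 1 higher gene (32.9%). The median was -0.22, against -0.01 over all genes, and 32 or 33 genes fell under each of the 3 scalings tried.

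**Figure D1:**
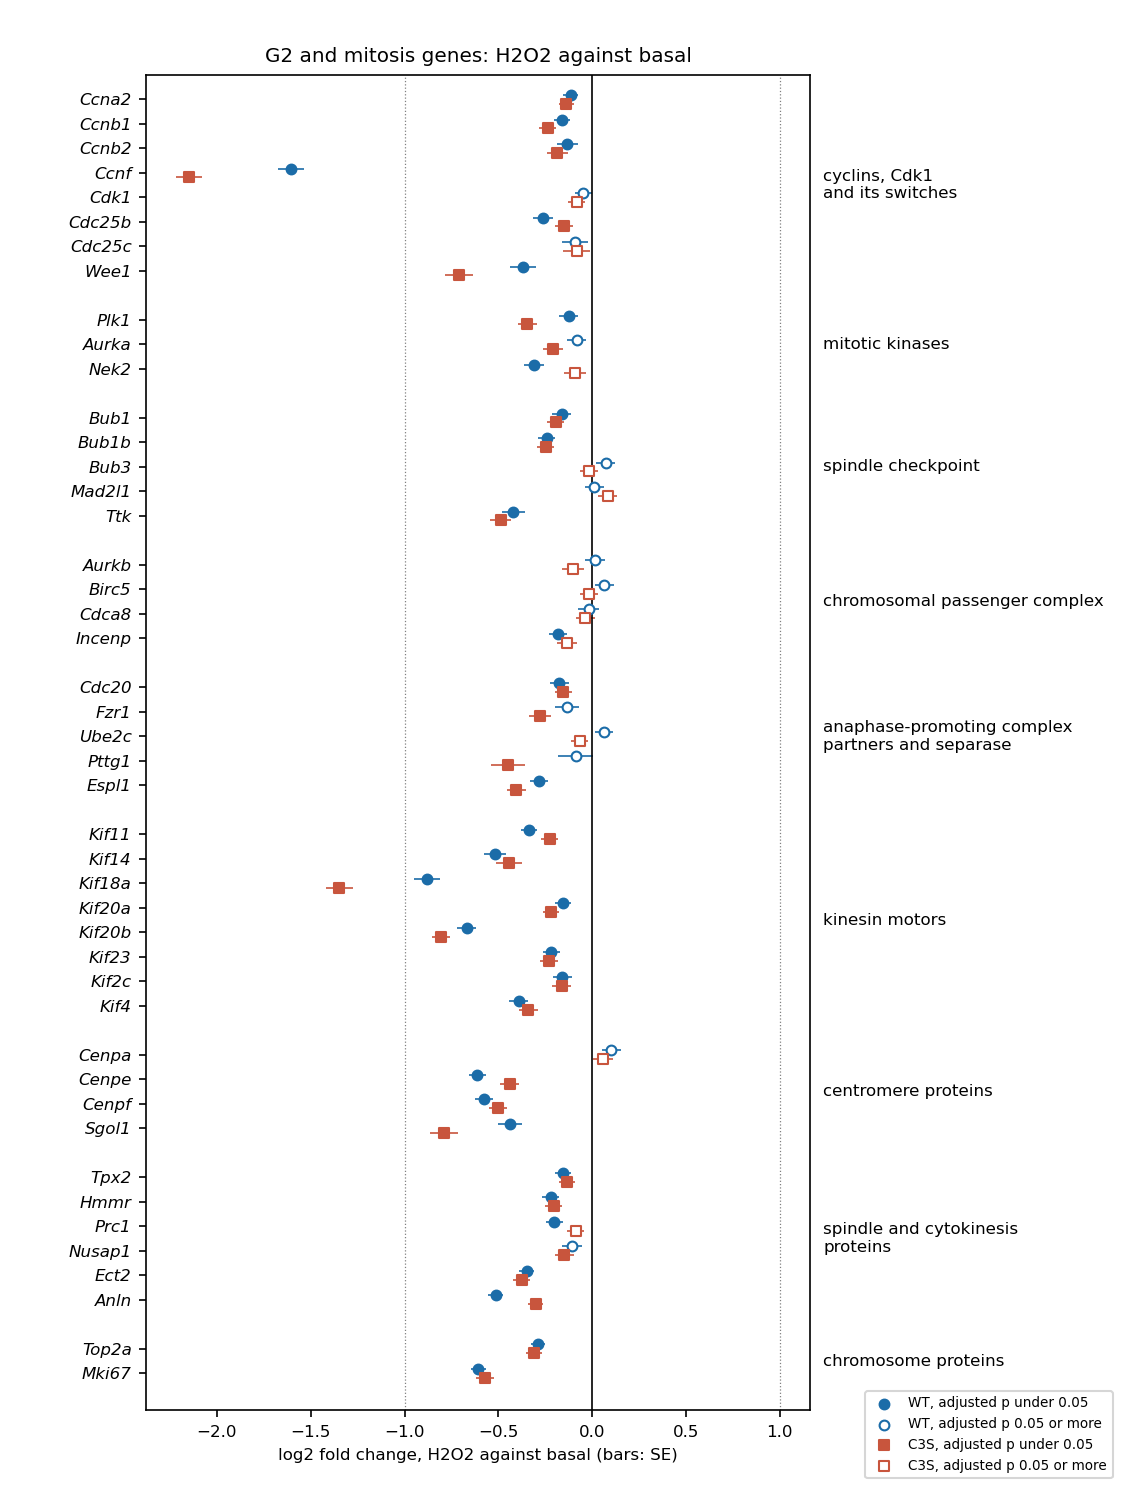
Log2 fold change of each of the 45 genes after H2O2 against basal (x axis, with SE) in WT cells (blue circles) and C3S cells (red squares), grouped by role. Filled symbols passed an edgeR adjusted p of 0.05, and dotted lines mark 2-fold. Ccnf lies at -1.61 and -2.15 and Kif18a at -0.88 and -1.35, while the genes of the chromosomal passenger complex lie close to 0.

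The cyclins, Cdk1 and its switches were led by Ccnf. Ccnf encodes cyclin F, the substrate-binding F-box subunit of an SCF ubiquitin ligase that acts in G2 and does not activate a kinase, and it lies on chromosome 17 from 24222198 to 24251484. It stood at 1260 and 1309 normalised counts in the WT basal libraries and at 428 and 416 after H2O2. In the C3S libraries it stood at 1598 and 1613 at baseline and at 374 and 349.6 after H2O2. The treated and basal groups were far apart in each line, and the level was higher in C3S than in WT cells at baseline and lower in them after H2O2. The log2 fold change was -1.61 in WT cells (SE 0.0678, edgeR adjusted p = 1.57e-34) and -2.15 in C3S cells (SE 0.067, edgeR adjusted p = 3.14e-15).

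Wee1, the kinase that holds Cdk1 inactive, was the other gene of this group with a sizeable change. It stood at 806 and 806 normalised counts in WT basal cells and 638 and 608 after H2O2. In C3S cells it stood at 879 and 1003 at baseline and 592 and 563 after H2O2. Each treated group lay below its basal group, with log2 fold changes of -0.37 (SE 0.0695, edgeR adjusted p = 6.08e-06) and -0.71 (SE 0.0749, adjusted p = 2.83e-07).

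The phosphatase genes and the other cyclins moved less. Cdc25b, a phosphatase that activates Cdk1, fell by 0.26 on the log2 scale in WT and by 0.15 in C3S cells. The cyclin genes Ccna2, Ccnb1 and Ccnb2, whose proteins activate Cdk1, fell in both lines by 0.11 to 0.24. Cdk1 did not pass the test in either line. It stood at 3559 and 3560 normalised counts in WT basal cells and 3294 and 3599 after H2O2, and at 4629 and 4769 in C3S basal cells and 4566 and 4315 after H2O2. The WT groups overlapped, and the changes were -0.05 (edgeR adjusted p = 0.428) and -0.08 (adjusted p = 0.158). Cdc25c, the other Cdk1 phosphatase in the set, had changes of -0.09 and -0.08 that did not pass either, and its 623 exonic bases shared with a gene on the opposite strand make its counts uncertain. The same holds to a smaller extent for Ube2c (592 bases), Ccna2 (510), Nek2 (298), Cdca8 (232), Nusap1 (172), Plk1 (156), Cdc25b (92), Cdc20 (53), Kif18a (11) and Fzr1 (4), and Top2a and Ccnf share 122 and 8 bases with a gene on their own strand.

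Of the mitotic kinases, Plk1, the polo kinase that promotes mitotic entry and spindle assembly, fell in both lines. It stood at 2171 and 2204 normalised counts in WT basal and 2011 and 1999 in WT H2O2 libraries, and at 2289 and 2316 in C3S basal and 1848 and 1777 in C3S H2O2 libraries. The groups did not overlap in either line, and the log2 fold changes were -0.13 (edgeR adjusted p = 0.0336) and -0.35 (adjusted p = 1.19e-05). Aurka, the Aurora kinase of centrosomes, changed by -0.08 in WT cells (adjusted p = 0.199) and fell by 0.21 in C3S cells (adjusted p = 0.00405). Nek2, a kinase that separates centrosomes, fell by 0.31 in WT cells and changed by -0.09 in C3S cells (adjusted p = 0.223). The difference between lines did not pass for either of them (interaction adjusted p = 0.295 and 0.0558).

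In the spindle checkpoint, 3 of 5 genes fell in each line (60%). Of the genes of comparable counts, 39.5% fell in WT and 29.2% in C3S cells. Ttk, which encodes the Mps1 kinase at the head of the checkpoint, fell by 0.42 and 0.49 on the log2 scale in WT and C3S cells. The checkpoint kinase gene Bub1 fell by 0.16 and 0.20, and Bub1b, which encodes the BubR1 part of the inhibitor complex, fell by 0.24 and 0.25. Bub3, the partner of both, changed by 0.07 and -0.02, and Mad2l1, which encodes the Mad2 inhibitor of Cdc20, by 0.01 and 0.08. Neither of these 2 passed the test in either line.

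The chromosomal passenger complex, which corrects kinetochore attachments and later acts in cytokinesis, stayed closest to its basal level, with medians of -0.0022 and -0.07. Of its 4 genes, 1 fell in WT cells (25%, near the 25.8% of all genes tested) and 0 in C3S cells (against 20.5%). Incenp, the scaffold, fell by 0.18 in WT cells (edgeR adjusted p = 0.00134) and changed by -0.13 in C3S cells (adjusted p = 0.0523), with no difference between lines that passed (interaction adjusted p = 0.728). Aurkb, the kinase of the complex, changed by 0.01 and -0.10, Birc5, which encodes survivin, by 0.07 and -0.02, and Cdca8, which encodes borealin, by -0.02 and -0.04.

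Of the anaphase-promoting complex partners and separase, 2 of 5 genes fell in WT cells and 4 of 5 in C3S cells. The WT share (40%) was near the 39.5% of genes of comparable counts that fell, and the C3S share (80%) stood against 29.2%. Espl1, separase, fell by 0.29 and 0.40 on the log2 scale, and the activator gene Cdc20 by 0.17 and 0.15. Fzr1, which encodes the later activator Cdh1, changed by -0.14 in WT cells (edgeR adjusted p = 0.0745) and fell by 0.28 in C3S cells. Pttg1 encodes securin, the inhibitor of separase. It stood at 400.0 and 370.5 normalised counts in WT basal and 372 and 353 in WT H2O2 libraries, and at 581 and 631 in C3S basal and 485 and 405 in C3S H2O2 libraries. The WT groups overlapped and the C3S groups did not, with changes of -0.09 (adjusted p = 0.473) and -0.45 (adjusted p = 0.000496). The difference between the responses did not pass (interaction adjusted p = 0.0658 for Pttg1 and 0.317 for Fzr1). Ube2c, the ubiquitin-conjugating enzyme of the complex, changed by 0.06 and -0.07 and passed in neither line.

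All 8 kinesin motor genes fell in both lines, against 39.5% in WT and 29.2% in C3S cells among genes of comparable counts. Kif18a, which shortens kinetochore microtubules and helps chromosomes to align, lies on chromosome 2 from 109280738 to 109341747. It stood at 919 and 1017 normalised counts in WT basal cells and 518 and 532 after H2O2. In C3S cells it stood at 984 and 1008 at baseline and at 392 and 391 after H2O2. The basal groups of the 2 lines overlapped, and after H2O2 the C3S libraries were lower than the WT libraries. The log2 fold change was -0.88 in WT cells (SE 0.07, edgeR adjusted p = 9.91e-19) and -1.35 in C3S cells (SE 0.0716, adjusted p = 1.34e-11).

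Kif20b, a kinesin of late mitosis and cytokinesis, came next. It stood at 2959 and 3160 normalised counts in WT basal and 1837 and 2011 in WT H2O2 libraries, and at 2749 and 2899 in C3S basal and 1613 and 1620 in C3S H2O2 libraries. Treated and basal groups did not overlap, and the log2 fold changes were -0.67 (SE 0.0499, edgeR adjusted p = 1.01e-19) and -0.81 (SE 0.0494, adjusted p = 1.08e-10). Kif14, a kinesin of the midbody, fell by 0.52 and 0.44. Kif4, the chromosome-borne kinesin, fell by 0.39 and 0.34, and its 832 exonic bases shared with Pdzd11 on the opposite strand leave its counts uncertain. Kif11, which pushes spindle poles apart, fell by 0.34 and 0.23, and Kif23, the motor of centralspindlin, by 0.22 and 0.23. Kif2c, a microtubule depolymerase, fell by 0.16 in each line. Kif20a, which carries the passenger complex to the spindle midzone, fell by 0.16 and 0.22, and it shares 1271 exonic bases with Cdc23 on the opposite strand.

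Of the centromere proteins, the large outer kinetochore genes fell and Cenpa did not. Cenpe, a kinetochore motor, stood at 4721 and 5123 normalised counts in WT basal and 3156 and 3283 in WT H2O2 libraries, and at 4856 and 5343 in C3S basal and 3672 and 3853 in C3S H2O2 libraries. Its log2 fold changes were -0.61 (SE 0.0449, edgeR adjusted p = 2.87e-20) and -0.44 (adjusted p = 5.84e-07). Cenpf, a large kinetochore and nuclear matrix protein of G2, stood at 3842 and 4358 in WT basal and 2683 and 2813 in WT H2O2 libraries, and at 3591 and 3788 in C3S basal and 2535 and 2689 in C3S H2O2 libraries. Treated and basal libraries of both genes were separate in each line, and Cenpf fell by 0.58 and 0.50.

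Sgol1 encodes shugoshin, the protector of centromeric cohesion. It stood at 987 and 988 normalised counts in WT basal and 725 and 731 in WT H2O2 libraries, and at 1051 and 1185 in C3S basal and 615 and 684 in C3S H2O2 libraries. It fell by 0.44 in WT cells (SE 0.0643, edgeR adjusted p = 1.79e-08) and by 0.79 in C3S cells (SE 0.0731, adjusted p = 4.49e-08). Cenpa, the centromeric histone variant, had changes of 0.10 and 0.06 that did not pass (adjusted p = 0.0982 and 0.448).

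Of the spindle and cytokinesis genes, 5 of 6 fell in each line (83.3%). Among genes of comparable counts 39.5% fell in WT and 29.2% in C3S cells. Anln, which encodes the contractile ring scaffold anillin, had the largest fall of this role in WT cells, by 0.51. It fell by 0.30 in C3S cells. Ect2, the exchange factor that switches on RhoA at the cell equator, fell by 0.35 and 0.38, Hmmr, a spindle protein, by 0.22 and 0.21, and Tpx2, the activator of Aurka on the spindle, by 0.16 and 0.14. Prc1, the midzone microtubule bundler, fell by 0.20 in WT cells and changed by -0.09 in C3S cells (edgeR adjusted p = 0.122). Nusap1, which binds spindle microtubules, changed by -0.11 in WT cells (adjusted p = 0.0901) and fell by 0.15 in C3S cells. The interaction did not pass for Prc1 or Nusap1 (adjusted p = 0.24 and 0.776).

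Mki67 and Top2a, the genes of the chromosome proteins most used as marks of dividing cells, fell in both lines. Mki67, the Ki-67 antigen, stood at 9230 and 9927 normalised counts in WT basal and 6170 and 6413 in WT H2O2 libraries, and at 11611 and 11986 in C3S basal and 7443 and 8437 in C3S H2O2 libraries. Every treated library lay below every basal library, with log2 fold changes of -0.61 (SE 0.0403, edgeR adjusted p = 2.07e-22) and -0.57 (SE 0.0486, adjusted p = 1.4e-08). Top2a, topoisomerase II, fell by 0.29 and 0.31. By sum, the 45 genes took 7549 and 7564 CPM (counts scaled by library totals) in the WT basal libraries, 6747 and 6768 in the WT H2O2 libraries, 7554 and 7756 in the C3S basal libraries and 6440 and 6479 in the C3S H2O2 libraries.

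The 45 genes did not move by equal amounts. Ccnf, Kif18a and Kif20b lost more than a gene such as Ccnb1, while Cdk1, Cdc25c, Bub3, Mad2l1, Aurkb, Birc5, Cdca8, Ube2c and Cenpa passed the test in neither line. The size of the change went with the size of the gene. Over the 45 genes the Spearman correlation of the log2 fold change with the gene span (GENCODE M21) was -0.70 in WT and -0.50 in C3S cells, and with the longest transcript -0.55 and -0.32. Over 6432 of the 6720 genes of comparable counts the correlation with the span was -0.52 and -0.31, and with the transcript -0.54 and -0.33. These are descriptions over genes of the same libraries, chosen after the values had been seen. The 15 genes with the longest transcripts (4133 to 11130 bases) had a median of -0.51 after H2O2 in WT cells and of -0.40 in C3S cells. Those 15 with the shortest (1531 to 3227 bases) had medians of -0.13 and -0.16. The part of gene and transcript length in these changes was not tested. Ccnf spans 29287 bases and fell by far more than other genes of its span.

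**Figure D2:**
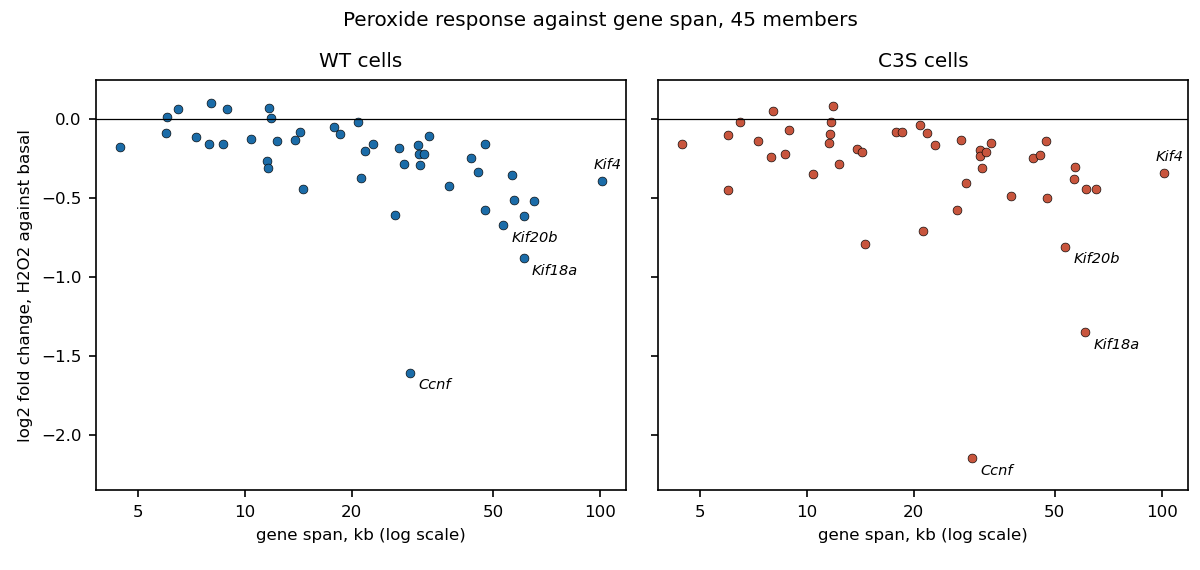
Log2 fold change after H2O2 against basal (y axis) plotted over gene span in kb (x axis, log scale) for the 45 genes in WT cells (left) and C3S cells (right), 1 point a gene. Points fall towards the right in both panels, with Spearman correlations of -0.70 and -0.50, and Ccnf lies far below genes of like span.

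The responses of the 2 lines were compared gene by gene. They share no libraries. Of the 45 genes, 29 fell in both lines, and the share of all genes that fell in both was not counted. In WT cells 25.8% of all genes tested and 39.5% of genes of comparable counts fell, and in C3S cells 20.5% and 29.2%. The responses of the 45 genes had a Pearson correlation of 0.92 (0.84 without Ccnf) and a Spearman correlation of 0.81. Over all genes tested the Pearson correlation was 0.78. In the fit of line, treatment and their interaction, the response differed in 6 of 45 genes by adjusted p (13.3%, against 12.6% of all genes tested and 18.9% of genes of comparable counts). Of all genes tested, 3.38% had a lower and 9.18% a higher response in C3S cells. None of the 6 differed by 2-fold. In 5 of them the fall was larger in C3S cells, and in Anln it was larger in WT cells. With scaling by library totals the response was lower in C3S cells in 9 genes and higher in 0, and with the replicate block in 6 and 3.

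Ccnf had the largest difference, with a response lower by 0.54 on the log2 scale in C3S than in WT cells (SE 0.0967, edgeR adjusted p = 0.000133). Kif18a followed with -0.47 (SE 0.103, adjusted p = 0.00171). These 2 kept an adjusted p under 0.05 under every alternative tried. Sgol1 differed by -0.35 (SE 0.0963, adjusted p = 0.0122), Wee1 by -0.34 (SE 0.102, adjusted p = 0.0231) and Plk1 by -0.22 (SE 0.0678, adjusted p = 0.0271). DESeq2 did not call these 3 (adjusted p = 0.102, 0.162 and 0.101). Sgol1 also lost its call without C3S basal replicate 2 (-0.26, adjusted p = 0.127) or C3S H2O2 replicate 1 (-0.28, adjusted p = 0.0871). Wee1 lost it without WT basal replicate 2, C3S basal replicate 2, WT H2O2 replicate 1 or C3S H2O2 replicate 2 (-0.34 to -0.23, adjusted p = 0.0522 to 0.21). Plk1 lost it without any single library other than WT basal replicate 2 and C3S H2O2 replicate 1 (-0.23 to -0.19, adjusted p = 0.0533 to 0.12). Anln differed by 0.21 (SE 0.0548, adjusted p = 0.0077), a value that fell to 0.13 with scaling by library totals (adjusted p = 0.0952), and lost its call without WT H2O2 replicate 2 or C3S H2O2 replicate 2 (0.19 and 0.18, adjusted p = 0.0717 and 0.0554).

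**Figure D3:**
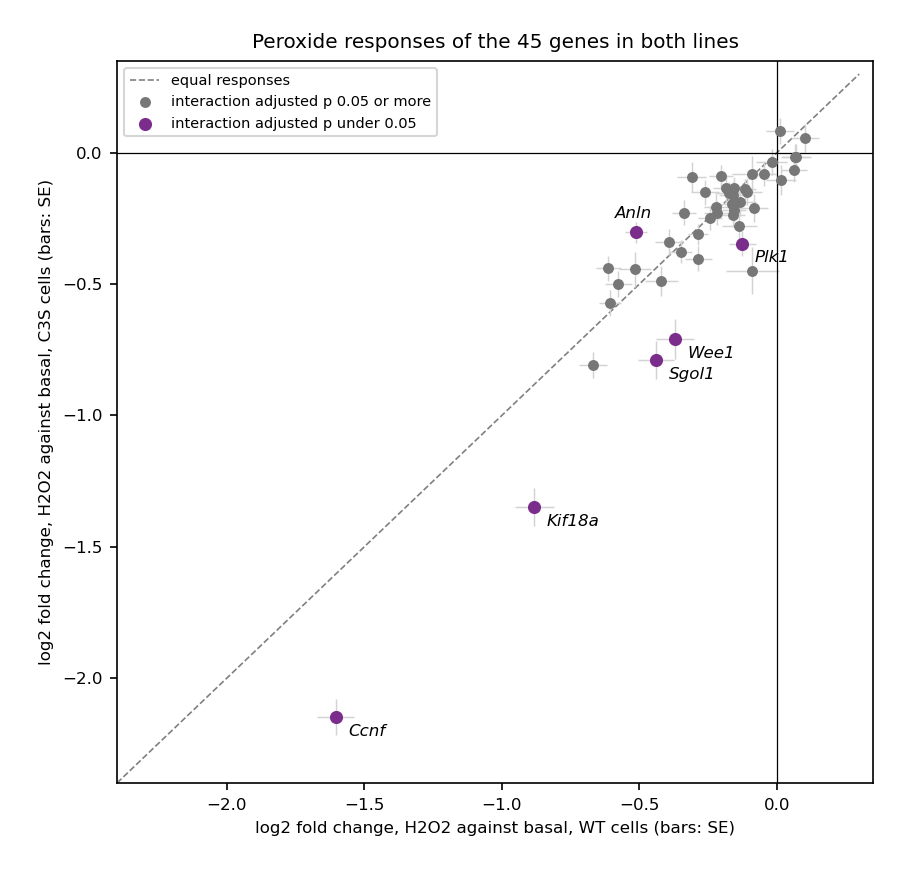
Log2 fold change after H2O2 in C3S cells (y axis) against that in WT cells (x axis) for the 45 genes, with SE bars and a dashed line of equal responses. The 6 purple genes passed the interaction test, and Ccnf and Kif18a lie farthest below the line, by 0.54 and 0.47.

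**Figure D4:**
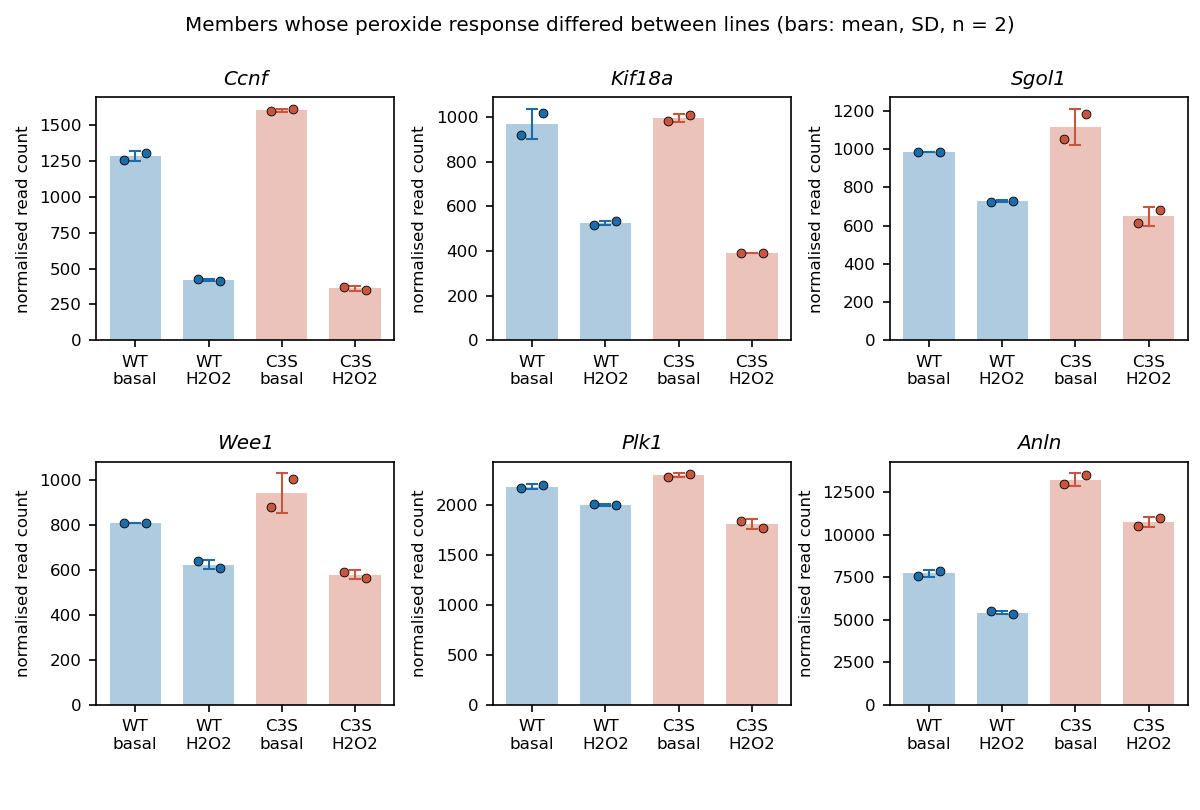
Normalised read counts (y axis, from 0) of the 6 genes whose response differed between lines, with 1 point per library and bars for the mean and SD of 2 libraries in the WT (blue) and C3S (red) groups. Ccnf stood at 1598 and 1613 in C3S basal libraries against 1260 and 1309 in WT basal libraries, and the order of the lines was the opposite after H2O2, at 374 and 349.6 against 428 and 416.

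At baseline C3S cells carried more RNA of all 5 anaphase-promoting complex partners and separase than WT cells. Of the 8 cyclins, Cdk1 and its switches, 5 were higher and 0 lower. The other roles were mixed, and all differences were under 2-fold. Of the 8 kinesins 3 were higher and 1 was lower, of the 5 checkpoint genes 3 were higher and 2 lower, and of the 6 spindle and cytokinesis genes 3 were higher and 2 lower. None of the 45 genes was called higher (6.07% of all genes tested) or lower (9.39%). By adjusted p alone 23 were higher (28.3%) and 9 lower (28.9%), against 39% and 29.4% of the genes of comparable counts. The groups did not overlap in 28 higher genes (37.6% of all genes) and 11 lower genes (39.1%). The median was 0.14, against -0.01 over all genes. Scaling by library totals moved the median of all genes to -0.11 and gave 14 higher and 12 lower. Cdc20, Fzr1 and Pttg1 were among these 14, and Ube2c and Espl1 were not. Of the cyclin group, Ccnf, Cdk1 and Cdc25b were among them, and Cdc25c and Wee1 were not.

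Anln had the largest baseline difference. It stood at 7604 and 7899 normalised counts in WT basal and 13001 and 13522 in C3S basal libraries, and at 5511 and 5348 in WT H2O2 and 10538 and 10981 in C3S H2O2 libraries. All 4 C3S libraries lay above all 4 WT libraries, by 1.71-fold at baseline (log2 0.78, SE 0.0435, edgeR adjusted p = 2.43e-23) and by 1.98-fold after H2O2 (log2 0.99, SE 0.0352, adjusted p = 2.91e-33). The gene lies on chromosome 9 from 22332012 to 22389188.

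Prc1 also separated the lines, at 4181 and 4283 normalised counts in WT basal, 3756 and 3602 in WT H2O2, 6017 and 6372 in C3S basal and 5713 and 5948 in C3S H2O2 libraries. It was higher in C3S cells by 0.55 at baseline (SE 0.0477, edgeR adjusted p = 2.11e-15) and by 0.66 after H2O2 (SE 0.0385, adjusted p = 5.2e-23), with 911 exonic bases shared with Rccd1 on the opposite strand. Pttg1, given above, was higher by 0.66 at baseline (SE 0.0871, adjusted p = 2.49e-09) and by 0.30 after H2O2. The RNA of all 5 anaphase-promoting complex partners and separase was higher in C3S cells at baseline. Cdc20 and Fzr1 were higher by 0.37 each, Ube2c by 0.19 and Espl1 by 0.15. Ube2c and Espl1 did not pass as higher with scaling by library totals.

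Cdk1 and Cdca8 were higher in C3S cells before and after treatment. Cdk1 differed by 0.40 at baseline (SE 0.0485, edgeR adjusted p = 1.75e-10) and by 0.37 after H2O2. Cdca8 stood at 1509 and 1380 normalised counts in WT basal, 1466 and 1388 in WT H2O2, 1994 and 1901 in C3S basal and 1919 and 1875 in C3S H2O2 libraries, so that the lines were separate and the treatments overlapped. It differed by 0.43 (SE 0.0569, adjusted p = 2.58e-09) and 0.41. Ttk and Kif23 were each higher by 0.37 at baseline, and Mki67 by 0.30. Smaller baseline rises of 0.14 to 0.34 were seen for Ccnf (0.32), Cdc25b (0.34), Bub3 (0.24), Wee1, Kif20a, Aurka, Cdc25c, Kif4, Sgol1, Tpx2 and Bub1.

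Kif14 had the largest difference in the other direction. It stood at 1373 and 1439 normalised counts in WT basal, 1028 and 935 in WT H2O2, 931 and 982 in C3S basal and 681 and 729.5 in C3S H2O2 libraries. It was lower in C3S cells by 0.55 at baseline (SE 0.061, edgeR adjusted p = 1.06e-11) and by 0.48 after H2O2 (adjusted p = 7.44e-09), with no overlap in either comparison. Top2a was lower by 0.33, Hmmr by 0.29, Mad2l1 by 0.23, Ect2 by 0.22, Nek2 by 0.21, Bub1b by 0.18, Aurkb by 0.17 and Cenpf by 0.15. Mki67 and Top2a, both taken as marks of dividing cells, thus differed between the lines in opposite directions at baseline, and did so after H2O2 as well, by 0.34 and -0.35. The baseline difference did not pass for Ccna2, Ccnb1, Ccnb2, Plk1, Birc5, Incenp, Kif11, Kif18a, Kif20b, Kif2c, Cenpa, Cenpe and Nusap1.

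After H2O2 the order of the lines was mixed. None of the 45 genes was called higher (7.8% of all genes tested) or lower (10.7%), with Anln just short of 2-fold. Without WT H2O2 replicate 1 or C3S H2O2 replicate 1, Anln was the 1 gene called higher. By adjusted p alone 20 were higher (32.4%) and 12 lower (32%), against 45.3% and 28.9% of the genes of comparable counts. The groups did not overlap in 22 higher genes (39.5% of all genes) and 15 lower genes (41.7%). The median was 0.06, against -0.02 over all genes. With scaling by library totals, which moved the median of all genes to -0.20, 8 were higher and 25 lower. Cdc25b stood at 1567 and 1558 normalised counts in WT H2O2 and 2104 and 2159 in C3S H2O2 libraries, after 1836 and 1911 in WT basal and 2345 and 2384 in C3S basal libraries. It was higher in C3S cells by 0.45 after H2O2 (SE 0.0487, edgeR adjusted p = 4.64e-12). Kif18a, which did not differ beyond the test at baseline (0.04, adjusted p = 0.598), was lower in C3S cells by 0.42 after H2O2 (SE 0.0862, adjusted p = 2.16e-05). Ccnf was higher in C3S cells by 0.32 at baseline (adjusted p = 2.25e-06) and lower by 0.22 after H2O2 (adjusted p = 0.034), and Sgol1 went from 0.18 to -0.17. The 2 comparisons of lines share no libraries with each other, but each shares libraries with the peroxide comparisons.

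**Figure D5:**
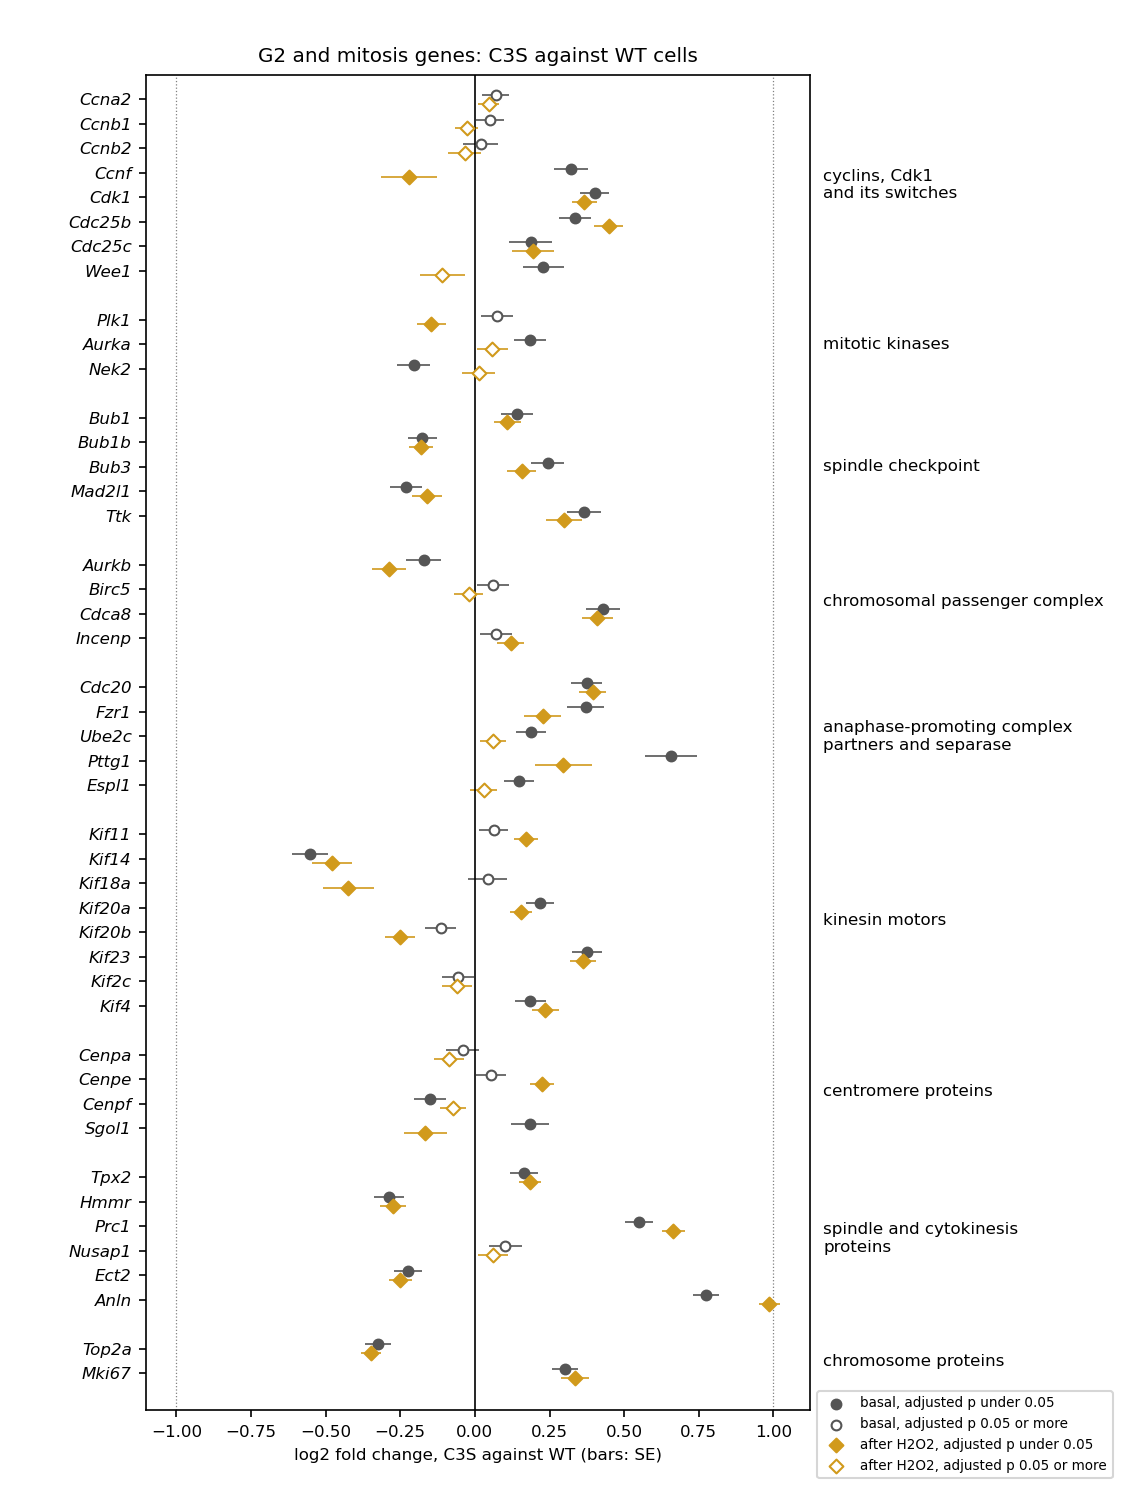
Log2 fold change of each of the 45 genes in C3S against WT cells (x axis, with SE) at baseline (grey circles) and after H2O2 (yellow diamonds), grouped by role. Filled symbols passed an edgeR adjusted p of 0.05, and dotted lines mark 2-fold. Anln lies at 0.78 and 0.99 and Kif14 at -0.55 and -0.48, and Ccnf changes side from 0.32 to -0.22.

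Other genes of the same processes were read from 6 lists of 195 genes in all. The counts of each list stand beside the shares over all genes tested. Of these, 25.8% fell and 18.3% rose in WT cells and 20.5% fell and 17.4% rose in C3S cells. Of the genes of comparable counts, 39.5% fell in WT and 29.2% in C3S cells. Of 21 condensin and cohesin genes, which shape and hold chromosomes, 17 fell (81.0%) and 0 rose in WT cells and 11 fell (52.4%) and 0 rose in C3S cells. Their medians were -0.22 and -0.11. Stag1, a cohesin subunit, fell by 0.45 and 0.23, Nipbl, the cohesin loader, by 0.41 and 0.14, and Smc2, a condensin subunit, by 0.35 and 0.25. The fall was larger in WT cells for Nipbl (interaction 0.27, edgeR adjusted p = 0.00461) and Stag1 (0.22, adjusted p = 0.0226).

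Of 50 other spindle, centrosome and cytokinesis genes, 22 fell (44%, near the share among genes of comparable counts) and 4 rose (8%) in WT cells and 29 fell (58%) and 2 rose (4%) in C3S cells. Aspm, a spindle pole protein, fell by 0.86 in each line, Cit, the citron kinase of cytokinesis, by 0.72 and 0.51, and Ckap5, a microtubule polymerase, by 0.36 and 0.35. Of 37 kinetochore genes, 10 fell (27.0%, near the share of all genes) and 4 rose (10.8%) in WT cells and 12 fell (32.4%) and 5 rose (13.5%) in C3S cells. Casc5, the Knl1 scaffold, fell by 0.60 and 0.51.

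Hjurp, the chaperone that loads Cenpa onto centromeres, moved the other way. It stood at 1244 and 1247 normalised counts in WT basal and 2504 and 2539 in WT H2O2 libraries, and at 873 and 846 in C3S basal and 1835 and 1918 in C3S H2O2 libraries. It was called higher in both lines, by 1.02 (edgeR adjusted p = 2.82e-29) and 1.13 (adjusted p = 4.98e-12).

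Among 16 anaphase-promoting complex genes and regulators, 4 fell (25%, near the 25.8% of all genes tested) and 2 rose (12.5%) in WT cells and 6 fell (37.5%, against 20.5%) and 2 rose (12.5%) in C3S cells. Fbxo5, which encodes the Emi1 inhibitor of the complex, stood at 1143 and 1206 normalised counts in WT basal and 758 and 785 in WT H2O2 libraries, and at 1719 and 1722 in C3S basal and 684 and 744 in C3S H2O2 libraries. It fell by 0.61 in WT cells and by 1.27 in C3S cells, where it was called, and the difference of the responses was -0.66 (SE 0.0858, edgeR adjusted p = 7.57e-07). Like Ccnf, it was higher in C3S cells at baseline (0.55, adjusted p = 1.69e-12). Anapc1, the largest subunit, fell by 0.38 and 0.32, and Cdc27 by 0.21 and 0.12.

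Of 25 genes of the transcriptional control of G2, 6 fell (24%, against 25.8% of all genes tested) and 7 rose (28%, against 18.3%) in WT cells and 7 fell (28%, against 20.5%) and 5 rose (20%, against 17.4%) in C3S cells. Cdkn1a, the p53-induced Cdk inhibitor p21, stood at 969 and 959 normalised counts in WT basal and 1712 and 1697 in WT H2O2 libraries, and at 2064 and 2056 in C3S basal and 3616 and 3639 in C3S H2O2 libraries. It rose by 0.82 in each line (edgeR adjusted p = 4.82e-22 and 2.51e-11) and was called higher in C3S cells at baseline, by 1.10 (adjusted p = 1.2e-24). The repressor genes E2f7 and E2f8 fell by 0.49 and 0.46 in WT cells and by 0.53 and 0.43 in C3S cells. Of 46 DNA replication genes, which act before G2, 13 fell (28.3%) and 7 rose (15.2%) in WT cells and 8 fell (17.4%) and 6 rose (13%) in C3S cells, near the shares of all genes, with medians of -0.0039 and 0.01. Pola1, Pole and Orc2, named for their small adjusted p, fell by 0.40, 0.34 and 0.33 in WT cells and by 0.32, 0.53 and 0.20 in C3S cells. The fall of Pole was larger in C3S cells (interaction -0.19, edgeR adjusted p = 0.0488).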

How the data were processed

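RNA from the 8 MEF samples was enriched for mRNA and sequenced as directional single-end libraries. Per the labels and the study's methods, the authors trimmed the reads with Scythe and Sickle, aligned them to mm10 with TopHat2 2.0.10 and kept reads that mapped uniquely to exons. The deposited table used holds the expected counts per gene that the authors obtained, of which 58.4% of values above 0 were whole within 1e-09. Its header calls them normalised, but column totals differed. The sources used here do not name the counting program or say whether it used the strand. A second deposited sheet with the same counts divided by size factors, and 12 columns of values per group, were not used. A further 27 rows named as dates held 0.28% of counts, and 20 of them were tested but cannot be named.

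Expected counts were rounded, genes with a mean count of at least 10 in 1 group were kept (13538 of 19041), and median-of-ratios size factors scaled the libraries. A robust quasi-likelihood F-test (edgeR 4.0.16, R 4.3.3) was fitted over all kept genes on the 4 libraries compared, or on all 8 for the interaction. P-values were adjusted by the Benjamini-Hochberg method over all genes tested. A call needed an adjusted p under 0.05 and a 2-fold change. SE is the log2 fold change divided by the square root of F. The tests were checked on simulated counts that had the same relative spread for every gene. Recovery was required only for changes of at least 2-fold, which no interaction given here reached. That requirement was lowered after the simulated interaction fell short of it. Alternatives were TMM, library totals, no filter, DESeq2 1.42.0, a replicate block, a single fit of all libraries and leaving out each library.

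The members, roles, lists and motifs were chosen with earlier results of these data known. Values in every library are given for called members (up to 10), filled to 6 by the largest changes past the adjusted p, and for the 6 smallest interaction p-values. Up to 3 genes a list are named by their smallest adjusted p under peroxide, and a gene so chosen is not reported here. The written rule flagged interactions of at least 2-fold, which 0 members reached, and the 6 past the adjusted p are given instead. Positions are from GENCODE M21 (GRCm38, the build of mm10).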

Additional observations from a re-analysis of the deposited data

Results flagged for a closer look

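For 6 genes the response to peroxide differed between the lines by the interaction test. On the log2 scale, as C3S minus WT, the difference was -0.54 for Ccnf, -0.47 for Kif18a, -0.35 for Sgol1, -0.34 for Wee1, -0.22 for Plk1 and 0.21 for Anln. In all 5 genes other than Anln the mean C3S level was above the mean WT level at baseline and below it after H2O2. Both differences passed for Ccnf and Sgol1. The baseline difference did not pass for Kif18a and Plk1 (edgeR adjusted p = 0.598 and 0.231), nor the difference after H2O2 for Wee1 (adjusted p = 0.206). For Anln the C3S level was the higher one in both conditions. No group had enough libraries for a check of single outlying values.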

How the results depend on the processing

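Of 173 counts of genes under the alternatives, 163 stayed within 1.5 times the reported count and 10 moved. No direction of a named gene reversed, and 18 of 318 values of named genes lost their call, all of them interactions (of Anln, Sgol1, Wee1 and Plk1). Scaling by library totals left 21 lower (reported 32) and 5 higher (reported 0) after H2O2 in WT cells, 14 higher in C3S cells at baseline (reported 23), and 25 lower and 8 higher after H2O2 (reported 12 and 20). The median of all genes moved by construction of that scaling. TMM gave 1 higher in WT cells (Cenpa). DESeq2 gave 3 interactions in place of 6, and the cause was not tested. Leaving out single libraries gave 0 to 2 genes higher in WT cells, with 2 (Bub3 and Cenpa) without WT basal replicate 1, and 0 to 1 called higher in C3S cells after H2O2, with 1 without WT H2O2 replicate 1 or C3S H2O2 replicate 1. The lone library left in a group was assumed to vary like the others. Libraries with the same letter did not deviate together (correlations 0.03 to 0.11), so the letters were not taken as a pairing. With the replicate block 32 genes fell in WT and 34 in C3S cells, 10 were lower and 24 higher at baseline, 12 lower and 20 higher after H2O2, and 9 interactions passed. The 2 libraries a group limit what small changes could be seen, most of all in the interaction.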
